A study of Mus musculus with 6 samples.

Results

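The 10 genes described here encode transcription factors of the somatic cells of the gonad. They are 7 factors of the early gonad (Gata4, Nr5a1, Wt1, Lhx9, Emx2, Zfpm2 and Nr0b1) and 3 factors of pregranulosa cells, the supporting cells of the fetal ovary (Foxl2, Runx1 and Irx3). They were taken as a list of gene symbols, drawn up with earlier results of these data known, and each matched 1 row of a table of 48709 genes by its Ensembl identifier. The table holds RNA-seq read counts of ovaries from wild-type CD1 mouse embryos at 13.5 days post coitum (dpc). In the 3 control libraries the dams had received ethanol, and in the 3 APAP+IBU libraries they had received acetaminophen (APAP) at 30 mg/kg/day with ibuprofen (IBU) at 15 mg/kg/day, in 4 gavages a day spaced 3 h apart from 10.5 to 13.5 dpc. Each library was made from a pool of whole ovaries, so that a p-value here measures the spread between pools, and single embryos cannot be followed. The titles of the exposed libraries name ibuprofen alone while their exposure label names both drugs, and the exposure label was used.

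The gonad forms from the surface layer of the genital ridge before it becomes an ovary or a testis. GATA4, the orphan nuclear receptor NR5A1 (SF-1), the zinc finger factor WT1 and the homeodomain factors LHX9 and EMX2 are each required for the gonad to form or to be kept. ZFPM2 (FOG2) is a cofactor that binds GATA4, and NR0B1 (DAX-1) is a corepressor that binds NR5A1. In the ovary, the forkhead factor FOXL2 and RUNX1 maintain the identity of supporting cells, and IRX3 is a homeodomain factor of pregranulosa cells.

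Promoter sequences from RefSeq (GRCm38.p6, 250 bases before to 50 after a start site) matched 6 of the 10 genes, with 2 start sites for Runx1. They are shown because these factors bind short motifs that other members of the list carry. Motifs were searched as exact letters on both strands: AGGTCA for NR5A1, TGTGGT for RUNX factors, GTAAACA for forkhead factors, TAATTA for the homeodomain factors LHX9 and EMX2, and AGATAA and TGATAA for GATA factors. No motif was searched for IRX3 or WT1. No motif of this set contains another. Of 32841 promoter windows of that length in the genome, 16.3% hold AGGTCA, 16.8% TGTGGT, 3.65% GTAAACA, 5.29% TAATTA, 11.2% AGATAA and 9.05% TGATAA. Capitals mark the matches, which on the antisense strand read as the reverse complement, and each line runs 5′ to 3′ on the strand of its gene.
Lhx9, chr1:138842486-138842515, minus strand: cctcctactaaaTTATCAaaaatgggctgg
Emx2, chr19:59458714-59458739, plus strand: tgatccccgcacTAATTAggctcatg
Nr0b1, chrX:86191558-86191666, plus strand: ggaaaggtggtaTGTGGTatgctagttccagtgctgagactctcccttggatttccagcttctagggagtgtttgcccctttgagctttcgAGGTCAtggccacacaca
Runx1, chr16:92826025-92826054, minus strand: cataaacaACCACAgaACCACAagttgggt
The Nr0b1 window held an NR5A1 motif 126 bases and a RUNX motif 205 bases before the start site. The distal Runx1 window held 2 RUNX motifs, 29 and 37 bases after the start. Lhx9 had a GATA motif 59 bases before its start and Emx2 a homeodomain motif 37 bases after. The windows of Foxl2, Irx3 and the other Runx1 start held none of these letters. The window of Foxl2 consisted of G and C at 71.3% of its bases.

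The share of G and C (GC content) of the transcripts differed widely among the 10 genes, and it is used below because the libraries differed in how they represented GC-rich transcripts. The 90 coding bases with the highest GC content are shown for both ends of that range, with G and C in capitals, from the coding exons of GENCODE M21 on GRCm38.
Foxl2, chr9:98956593-98956682, plus strand: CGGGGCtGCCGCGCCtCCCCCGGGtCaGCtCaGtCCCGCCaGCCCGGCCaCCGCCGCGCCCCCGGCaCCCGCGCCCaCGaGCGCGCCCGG
Irx3, chr8:91801119-91801208, minus strand: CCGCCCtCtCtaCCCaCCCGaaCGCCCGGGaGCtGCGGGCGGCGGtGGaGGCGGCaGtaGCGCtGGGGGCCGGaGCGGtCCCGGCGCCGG
Lhx9, 2 exons within chr1:138840022-138841843, minus strand: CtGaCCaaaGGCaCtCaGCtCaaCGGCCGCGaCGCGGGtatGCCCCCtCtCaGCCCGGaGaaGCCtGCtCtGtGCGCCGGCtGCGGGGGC
Zfpm2, 2 exons within chr15:40655545-40752946, plus strand: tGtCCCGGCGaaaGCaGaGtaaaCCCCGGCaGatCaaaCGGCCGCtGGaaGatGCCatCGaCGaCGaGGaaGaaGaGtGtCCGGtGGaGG
These stretches had GC contents of 86.7% in Foxl2, 81.1% in Irx3, 71.1% in Lhx9 and 60% in Zfpm2. Over the whole coding sequence the values were 71.6%, 66.4%, 55.8% and 49.5%. Pooled over all annotated transcripts of each gene, the measure used below, they were 60.8%, 62.4%, 42.8% and 44.7%.

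The libraries held 37811968 to 48954631 counts assigned to genes. Levels are given as CPM, the counts of a gene scaled to a common library total, after scaling by the trimmed mean of M-values (TMM). Libraries of the same group differed in GC content. Over the 730 tested genes with a GC content of at least 60%, the median deviation of log2 CPM from each gene's mean over the 6 libraries was 0.55 in control 1, 0.21 in control 2, -0.49 in control 3, and -0.24, -0.09 and 0.07 in APAP+IBU 1 to 3. Over the 4733 genes under 45% the sign was the opposite in all 6 libraries, from -0.29 in control 1 to 0.20 in APAP+IBU 1. Transcripts of other tissues also differed between libraries. The summed level of 12 liver genes was 2004 CPM in control 3 and 3256 CPM in APAP+IBU 3, against 181 to 549 CPM in the other 4 libraries. The summed level of 10 spermatid genes was 41.3 to 150 CPM in controls, highest in control 1, and 2.79 to 6.37 CPM after exposure. Sry, the testis-determining gene, had no count in any library, while 4 other Y-linked genes summed to 9.37 CPM in control 2 and 2.26 to 2.86 CPM in the other 5. The part of these differences in the levels of the 10 factors was not tested, except where a value with a correction or without a library is given.

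All 10 factors passed the filter on low counts, and all were detected in all 6 libraries, from 41 counts for Foxl2 in control 3 to 15065 for Wt1 in APAP+IBU 1. Levels were divided by exon length in kilobases (kb), which allows a rough comparison between genes. That length joins the exons of all annotated transcripts, such as 12.0 kb for Runx1 and 1.81 kb for Nr0b1. It can exceed the length of the RNA that was made, and GC content was not corrected here. Mean levels over the 6 libraries then spanned from 56.9 ± 5.28 CPM per kb (SD, n = 6) for Gata4 to 1.19 ± 0.800 for Foxl2. Between them lay Emx2 at 47.9 ± 6.52, Wt1 at 45.2 ± 2.93, Nr5a1 at 37.1 ± 6.77, Irx3 at 29.1 ± 11.6 and Lhx9 at 19.2 ± 3.23 CPM per kb. A lower group followed, with Nr0b1 at 5.98 ± 1.37, Zfpm2 at 4.73 ± 1.03 and Runx1 at 3.55 ± 0.405 CPM per kb.

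Only 2 steps of that order had ranges over the libraries that did not overlap. Lhx9 stood above Nr0b1 in 6 of 6 libraries, with a difference of 13.2 ± 4.09 CPM per kb, and Runx1 stood above Foxl2 in 6 of 6, with a difference of 2.36 ± 0.855. Gata4 over Emx2 and Zfpm2 over Runx1 also held in 6 of 6 libraries, though their ranges overlapped. Emx2 and Wt1 (4 of 6), Wt1 and Nr5a1 (5 of 6), Nr5a1 and Irx3 (5 of 6), Irx3 and Lhx9 (5 of 6) and Nr0b1 and Zfpm2 (4 of 6) stood in the other order in at least 1 library. Thus the pregranulosa factors did not form a block by level per length: Irx3 lay among the early gonad factors, while Runx1 and Foxl2 were the 2 lowest of the list. In CPM not divided by length, Nr0b1 lay below Runx1. Their means were 11.4 and 40.6 CPM in controls and 10.3 and 44.7 CPM after exposure.

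**Figure D1:**
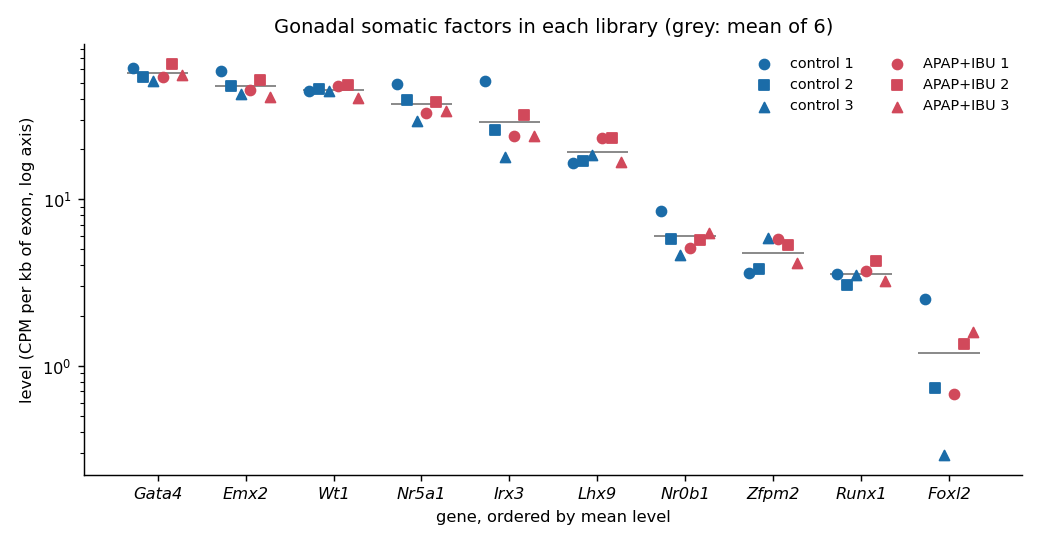
Level of each of the 10 factors in each library (CPM per kb of exon, log axis), with blue marks for controls, red marks for APAP+IBU, 1 mark shape for each replicate number and a grey line at the mean of the 6 libraries. Blue and red marks overlap for every gene, and the marks of Foxl2 run from 0.290 to 2.51 CPM per kb, the widest spread on this axis.

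The comparison of exposed with control ovaries asks whether the drugs given to the dam changed these factors. A quasi-likelihood test (edgeR) was run on 20167 genes, with p-values adjusted over all of them by the method of Benjamini and Hochberg. There, 0 of the 10 factors had an adjusted p under 0.05, as had 0% of all genes tested, where the smallest adjusted p was 0.0906. At an unadjusted p under 0.05 there were 0 of 10 factors, against 6.22% of all genes (1254 genes). The 2 groups overlapped for all 10 factors, while for 10.7% of all genes they did not. DESeq2 without shrinkage, run as an alternative, called 192 genes and 0 of the 10 factors. The log2 fold changes (APAP+IBU over control) were positive for 6 factors and negative for 4, with a median of 0.03 beside -0.005 for all genes tested. Exact two-sided permutation tests of the 3 against 3 log2 CPM values, which cannot go below p = 0.1, gave p from 0.300 for Lhx9 to 0.900 for Wt1.

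Gata4 (ENSMUSG00000021944, chr14:63198922-63271692 of GRCm38, minus strand) was at 240, 211 and 199 CPM in controls 1 to 3 and at 211, 254 and 218 CPM in APAP+IBU 1 to 3. The highest and the lowest library were thus an exposed and a control one, and the groups overlapped. Its mean was 217 ± 20.9 CPM in controls and 228 ± 23.2 CPM after exposure (SD, n = 3), a log2 fold change of 0.07 with a 95% confidence interval from -0.24 to 0.38 (adjusted p = 0.864). Its cofactor Zfpm2 (ENSMUSG00000022306, chr15:40655035-41104592, plus strand) was at 34.1, 36.1 and 55.8 CPM in controls and at 54.9, 50.7 and 39.2 CPM in exposed ovaries. Control 3 lay with APAP+IBU 1 and 2, and APAP+IBU 3 lay with controls 1 and 2. Zfpm2 had a log2 fold change of 0.20 (standard error 0.22, interval -0.31 to 0.71, adjusted p = 0.77), which was 0.03 with an offset for transcript length and GC content in each library. The ratio of Zfpm2 to Gata4 ranged from 0.142 to 0.280 in controls and from 0.180 to 0.260 after exposure.

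Wt1 (ENSMUSG00000016458, chr2:105126529-105173616, plus strand) was the steadiest of the 10 factors, at 275, 282 and 274 CPM in controls and 297, 301 and 251 CPM in exposed ovaries. Its highest level was 1.20 times its lowest, and the exposed libraries lay on both sides of the controls. Exposed and control ovaries differed by 0.03 on the log2 scale (standard error, SE, 0.12, interval -0.26 to 0.32, adjusted p = 0.939). Over the 12464 genes with a mean of at least 5 CPM, the ratio of highest to lowest library had a median of 1.49 and a 95th percentile of 2.72. WT1 is also made in the surface epithelium and the mesonephros. The surface genes Krt19 (68.2 CPM), Upk3b (143), Krt8 (110), Krt18 (103) and Msln (13.3) were all highest in control 2. Krt19 was at 13.8 to 36.3 CPM in the other 5 libraries. Only Lrrn4 was lowest in control 2, at 23.1 CPM against 25.8 to 30.6 CPM in the others. Wt1 was at 282 CPM in control 2 and had its highest levels in APAP+IBU 1 and 2. The share of surface or mesonephric cells in its level was not tested.

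Emx2 (ENSMUSG00000043969, chr19:59458372-59465357, plus strand) was at 177, 143 and 128 CPM in controls and at 136, 155 and 124 CPM after exposure. Control 1 was highest, and the other 5 libraries were mixed. The log2 fold change was -0.11 (standard error 0.16, interval -0.47 to 0.25, adjusted p = 0.811), and it was 0.03 without control 1.

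Lhx9 (ENSMUSG00000019230, chr1:138825186-138848577, minus strand), whose protein activates the Nr5a1 promoter together with WT1, was at 155, 161 and 175 CPM in controls and at 220, 221 and 159 CPM in exposed ovaries. APAP+IBU 1 and 2 lay above all controls, and APAP+IBU 3 lay among them. This was the largest positive difference of the list, with means of 164 ± 10.1 and 200 ± 35.8 CPM (SD, n = 3) and a difference of 0.29 on the log2 scale (standard error 0.16, interval -0.07 to 0.65, adjusted p = 0.692). With the length and GC offset, the log2 fold change of Lhx9 was 0.01 (standard error 0.13).

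Nr5a1 (ENSMUSG00000026751, chr2:38692656-38714542, minus strand) was at 207, 166 and 125 CPM in controls and at 140, 162 and 144 CPM after exposure. Controls 1 and 3 were the highest and the lowest of the 6 libraries, with all exposed libraries between them. Nr5a1 had a difference of -0.16 on the log2 scale (standard error 0.19, interval -0.59 to 0.27, adjusted p = 0.78). Nr0b1 (ENSMUSG00000025056, chrX:86191764-86195947, plus strand), which encodes its corepressor, showed the same order of controls, at 15.4, 10.4 and 8.29 CPM, with 9.21, 10.3 and 11.2 CPM in exposed ovaries. The exposed libraries again lay between controls 1 and 3. The log2 fold change of Nr0b1 was -0.15 (standard error 0.25, interval -0.72 to 0.42, adjusted p = 0.843). Without control 1 it was 0.13, and that of Nr5a1 was 0.03.

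Both of these genes are also active in the adrenal cortex, which lies beside the gonad. Summed adrenal genes were at 47.4 CPM in control 2 and at 24.9 to 28.1 CPM in the other 5 libraries. Most of this sum came from Hsd3b1, Star and Cyp11a1, which the gonad also expresses. Of the defining adrenal enzymes, Cyp11b1 was at 0 to 0.589 CPM. Cyp21a1 was at 1.23, 1.98 and 0.645 CPM in controls and at 0.296, 0.262 and 0.416 CPM in exposed ovaries (log2 fold change -1.98, unadjusted p = 0.00325, adjusted p = 0.349 in edgeR). All exposed libraries of Cyp21a1 lay below all controls, as for 5.92% of all genes. For the adrenal genes Mc2r (log2 fold change 0.44), Mrap (-0.29) and Akr1b7 (0.16) the groups overlapped. Nr5a1 and Nr0b1 were highest in control 1, where the adrenal sum was 25.2 CPM. The share of adrenal cells in their levels was not tested.

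Among pregranulosa factors, Runx1 (ENSMUSG00000022952, chr16:92601466-92826149, minus strand) was at 42.9, 36.9 and 42.2 CPM in controls and at 44.3, 50.9 and 38.9 CPM in exposed ovaries. APAP+IBU 1 and 2 lay above all controls and APAP+IBU 3 did not. The log2 fold change was 0.14 (standard error 0.14, interval -0.20 to 0.47, adjusted p = 0.764). With the length and GC offset it was -0.04.

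Irx3 (ENSMUSG00000031734, chr8:91798525-91802067, minus strand) was at 141, 72.0 and 49.6 CPM in controls and at 66.3, 88.1 and 65.7 CPM after exposure. Control 1 stood apart from the other 5 libraries, and the highest level was 2.84 times the lowest. Means were 87.5 ± 47.6 and 73.4 ± 12.8 CPM (SD, n = 3), which differed by -0.25 on the log2 scale (standard error 0.35, interval -1.05 to 0.54, adjusted p = 0.805). The sign rested on control 1, without which the value was 0.27, and it was 0.05 with the length and GC offset. Relative to Gata4, Irx3 was at 0.588 in control 1 and at 0.249 to 0.347 in the other 5 libraries.

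Foxl2 (ENSMUSG00000050397, chr9:98955288-98958543, plus strand) was the lowest and the least even of the 10 factors. It had 311, 89 and 41 counts in controls and 112, 200 and 200 counts in exposed ovaries. The 95% Poisson intervals, which cover counting error only, ran from 277 to 348 in control 1 and from 29.4 to 55.6 in control 3, so that counting error does not span the gap between these 2 controls. In CPM the controls were at 8.16, 2.38 and 0.944 and the exposed libraries at 2.21, 4.37 and 5.21. The controls thus held both ends of the range, 8.64 times apart, and all exposed libraries lay inside it.

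Foxl2 averaged 3.83 ± 3.82 CPM in controls and 3.93 ± 1.55 CPM after exposure (SD, n = 3). The log2 fold change was 0.04 with a standard error of 0.69 and a 95% confidence interval from -1.56 to 1.64 (adjusted p = 0.989), which leaves a large change in either direction undetectable with these 6 libraries. Without control 1 it was 1.24 (standard error 0.51, edgeR, adjusted p = 0.999), without control 2 it was -0.21, without control 3 it was -0.43, and with the length and GC offset it was 0.37 (standard error 0.53). Relative to Nr5a1, a factor of the same somatic cells, Foxl2 was at 0.0393, 0.0144 and 0.00755 in controls and at 0.0158, 0.0269 and 0.0362 in exposed ovaries, with control 1 highest and control 3 lowest, as in CPM. In whole ovaries, fewer cells of a type and less RNA per cell cannot be told apart.

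A GC-rich transcript, as those of Foxl2, Irx3 and Nr5a1 are, tended to be high in control 1 and low in control 3. The deviation of log2 CPM from the gene's mean in control 1 was 1.38 for Foxl2, 0.89 for Irx3, 0.54 for Nr0b1 and 0.42 for Nr5a1, and it was -0.38 for Zfpm2 and -0.21 for Lhx9. In control 3 it was -1.70, -0.62, -0.35 and -0.31 for the same 4 genes and 0.33 and -0.04 for Zfpm2 and Lhx9. Across the 10 genes, Pearson's r of deviation with GC content was 0.83 in control 1, 0.18 in control 2, -0.70 in control 3, -0.87 in APAP+IBU 1, 0.01 in APAP+IBU 2 and 0.46 in APAP+IBU 3. These values are descriptions over 10 genes that share their libraries and are not independent. Control 1 had the positive end, and control 3 and APAP+IBU 1 the negative end, in both the 10 factors and the genes of at least 60% GC.

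With the length and GC offset, the ratio of the highest to the lowest library was 1.55 for Irx3 and 1.23 to 1.50 for 8 other factors. That of Foxl2 was 4.55, where controls 1 to 3 deviated from its mean by 0.92, -0.59 and -1.26 on the log2 scale and APAP+IBU 1 to 3 by -0.30, 0.57 and 0.66. Foxl2 therefore kept the same highest and lowest library, while most of the spread of Irx3 was no longer there after the offset.

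**Figure D2:**
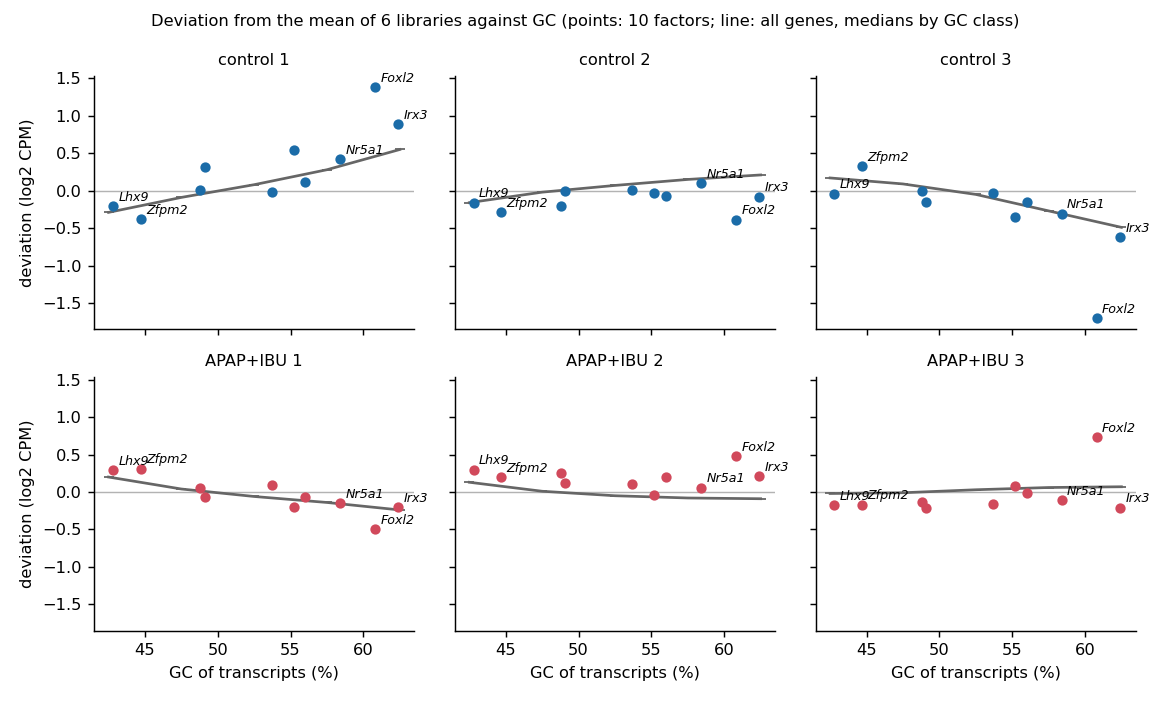
Deviation of log2 CPM from the gene's mean over 6 libraries (vertical) against GC content of the transcripts in percent (horizontal), 1 panel per library, with points for the 10 factors and a line through the medians of all tested genes in 5 GC classes. The line rises in control 1 and falls in control 3 and APAP+IBU 1, and Foxl2 lies farther from the line than the other 9 factors in control 1 (1.38) and control 3 (-1.70).

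Several of these genes have a neighbour on the opposite strand. Foxl2os (ENSMUSG00000097072) shares 12 exon bases with Foxl2, or 0.369% of the Foxl2 exons. It was at 11.9, 13.4 and 15.8 CPM in controls and at 26.5, 23.9 and 21.6 CPM in exposed ovaries. All exposed libraries lay above all controls, which 4.78% of all genes tested showed. On the log2 scale the difference was 0.81 (standard error 0.17, interval 0.42 to 1.20, unadjusted p = 0.00144), which did not pass adjustment (adjusted p = 0.211), and the exact permutation p was 0.100, the smallest possible.

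The ratio of Foxl2os to Foxl2 was 1.45, 5.63 and 16.7 in controls and 12.0, 5.46 and 4.14 in exposed ovaries, so that this ratio overlapped between groups. Foxl2os rested on 452 to 1343 counts and exceeded Foxl2 in every library. Emx2os was at 26.3, 24.9 and 36.3 CPM in controls and at 44.2, 45.7 and 35.6 CPM after exposure, a log2 fold change of 0.52 (unadjusted p = 0.0238, adjusted p = 0.692). It shares 264 exon bases with Emx2, or 8.79% of the Emx2 exons, and the groups overlapped. Among replicates 1 and 2, where 27.2% of all genes were called, Foxl2os (1.02, adjusted p = 0.00645), Emx2os (0.83, adjusted p = 0.00625) and Wt1os (0.48, adjusted p = 0.036) were all called higher. After the length and GC offset there, where 13.5% of all genes were called, Foxl2os (1.12, adjusted p = 0.00902) and Emx2os (0.64, adjusted p = 0.013) were called and Wt1os (0.35, adjusted p = 0.0705) was not. In 6 libraries Wt1os (0.28, adjusted p = 0.692) and Irx3os (0.09, adjusted p = 0.889) had smaller log2 fold changes. Nr5a1os had 1 to 25 counts. The kit kept the strand of the RNA, but the strand setting of the counting was not given in the sources used here, so the split between a gene and its opposite-strand partner in their shared bases is uncertain.

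**Figure D3:**
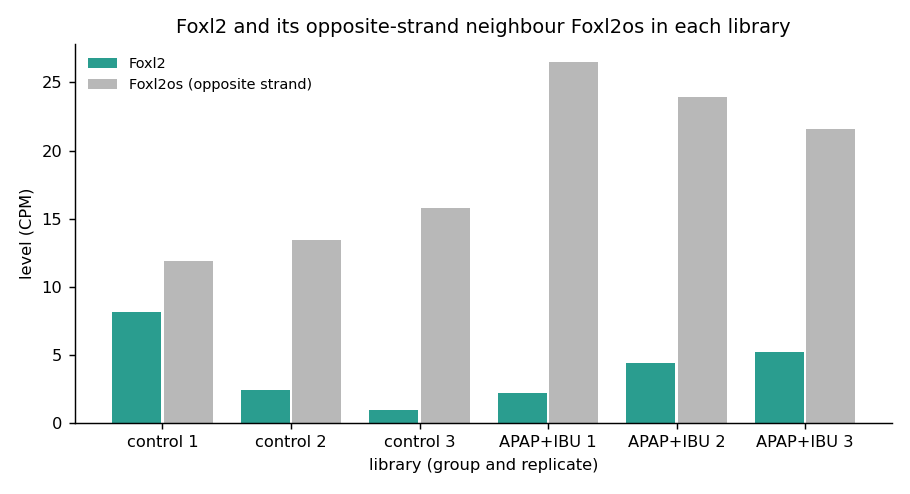
Levels in CPM of Foxl2 (green bars) and its opposite-strand neighbour Foxl2os (grey bars) in each of the 6 libraries, 1 bar per library and gene. Foxl2os runs from 11.9 to 15.8 CPM in controls and from 21.6 to 26.5 CPM in exposed ovaries, while Foxl2 has both its highest (8.16) and its lowest bar (0.944) among the controls.

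Leaving out replicate 3 of both groups, the libraries with the most liver transcripts, gave a different count of calls. It also left groups that differed in GC content. Over genes of at least 60% GC, controls 1 and 2 had median deviations of 0.55 and 0.21. APAP+IBU 1 and 2 had -0.24 and -0.09, and the signs were reversed under 45%. For all gene lists, calls made here without the offset therefore cannot separate exposure from GC content. Without control 3 alone 1064 genes were called, and without APAP+IBU 3 alone 0 were. With replicates 1 and 2 of each group, 5607 of 20633 genes (27.2%) had an adjusted p under 0.05, and 2 of the 10 factors did. The log2 differences were 0.50 for Lhx9 (SE 0.09, adjusted p = 0.00903) and 0.61 for Zfpm2 (SE 0.11, adjusted p = 0.00913). Both were higher after exposure, as were 14.2% of all genes, while 12.9% were lower. These 2 factors have the lowest GC contents of the list, 42.8% and 44.7%. With the length and GC offset in the same 4 libraries, 2793 genes (13.5%) and 0 of the 10 factors were called, with -0.02 for Lhx9 (adjusted p = 0.91) and 0.19 for Zfpm2 (adjusted p = 0.229).

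In these 4 libraries the other 8 factors were not called. Nr5a1 had a log2 fold change of -0.28 (adjusted p = 0.141) and Runx1 one of 0.27 (adjusted p = 0.131). Foxl2 was at -0.67 (SE 0.56, adjusted p = 0.407) and Irx3 at -0.44 (SE 0.28, adjusted p = 0.279). With the offset, Irx3 was at 0.16, Nr5a1 at 0.00 and Foxl2 at -0.16, and Gata4 was at 0.27 (unadjusted p = 0.0365, adjusted p = 0.135).

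**Figure D4:**
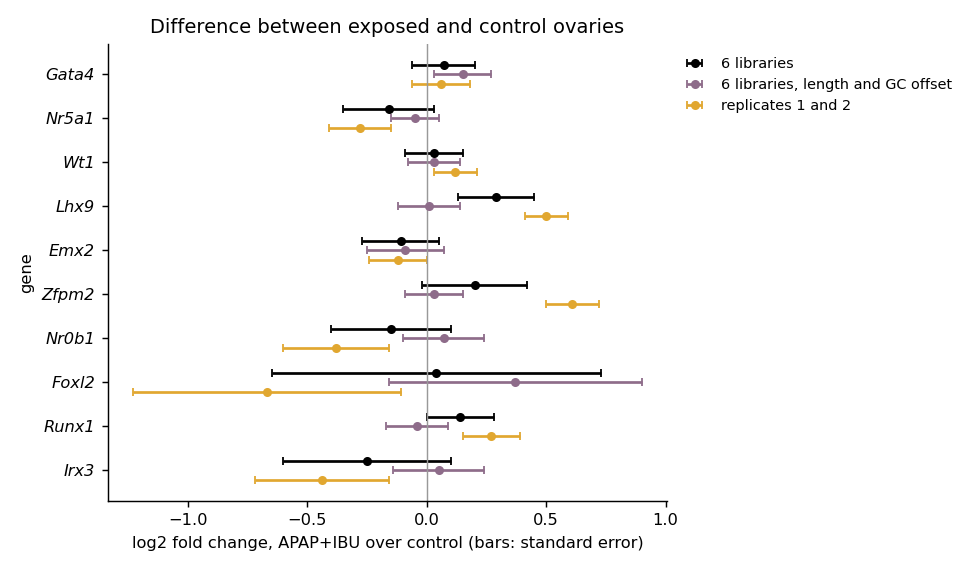
Log2 fold change of APAP+IBU over control for each of the 10 factors, with bars of 1 standard error, in all 6 libraries (black), in 6 libraries with the length and GC offset (purple) and in replicates 1 and 2 (orange). Lhx9 moves from 0.29 to 0.01 with the offset and to 0.50 in replicates 1 and 2, and Foxl2 has the widest bars.

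Of 15 other regulators of gonad formation, 0 passed the adjusted threshold, and their median log2 fold change was 0.00. Those with the highest level per length were Kdm3a, a histone demethylase needed for Sry activation, at 35.2 CPM per kb, Tcf21 at 24.2 and the Polycomb protein gene Cbx2 at 20.0. Znrf3, which encodes a ubiquitin ligase that dampens WNT signalling in the gonad, was at 36.8, 38.6 and 51.8 CPM in controls and 56.5, 66.5 and 48.3 CPM after exposure. APAP+IBU 3 lay below control 3 for Znrf3, so the groups overlapped. Its log2 fold change was 0.43 (edgeR, unadjusted p = 0.0451, adjusted p = 0.692), and the other 14 genes had an unadjusted p over 0.05. Of all genes tested, 6.22% were under that limit, and 3.00% were under it and higher. In replicates 1 and 2, where 14.2% of all genes were called higher and 12.9% lower, 3 of the 15 were called, all higher: Insr (0.62), Kdm3a (0.66) and Znrf3 (0.72, adjusted p = 0.007). The same libraries with the offset, where 13.5% of all genes were called, gave 1 call, Znrf3 (0.61, adjusted p = 0.013). GATA6, the close relative of GATA4 in the gonad, was encoded at 61.6 to 79.1 CPM in controls and 64.9 to 75.1 CPM in exposed ovaries.

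Of 14 genes of ovarian signalling and pregranulosa cells, 0 passed, with a median log2 fold change of 0.01. At an unadjusted p under 0.05 there were 3 higher genes and 1 lower gene, where 3.00% and 3.21% of all genes tested were. Cdkn1b, the cell cycle inhibitor that marks resting pregranulosa cells, was at 97.8, 101 and 105 CPM in controls and at 159, 155 and 119 CPM in exposed ovaries. Every exposed library of Cdkn1b lay above every control, as for 4.78% of all genes, and the log2 difference was 0.51 (SE 0.14, adjusted p = 0.551). Kitl, the ligand of the germ cell receptor KIT, had a log2 fold change of 0.49 (adjusted p = 0.692), and the R-spondin receptor gene Lgr5 also had 0.49 (adjusted p = 0.692). The groups overlapped for both.

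The lower gene was Gng13, a G protein subunit gene, at 54.1, 51.2 and 26.0 CPM in controls and 16.1, 15.4 and 19.7 CPM in exposed ovaries. All exposed libraries of Gng13 lay below all controls, as for 5.92% of all genes, and the difference was -1.36 on the log2 scale (standard error 0.28, unadjusted p = 0.00113, adjusted p = 0.187). The ovarian signal genes Wnt4 (-0.16, adjusted p = 0.829) and Rspo1 (-0.00, adjusted p = 0.995) and the activin antagonist gene Fst (0.21, adjusted p = 0.698) did not pass. Ctnnb1, which encodes β-catenin, was the most abundant of the 14 per length at 218 CPM per kb, with a log2 fold change of -0.04. Of the 14, 3 were called in replicates 1 and 2 as higher and 2 as lower, where 14.2% and 12.9% of all genes were. The higher ones were Cdkn1b (0.68, adjusted p = 0.00625), Kitl (0.85, adjusted p = 0.00625) and Lgr5 (0.87, adjusted p = 0.00632), and the lower ones Gng13 (-1.72, adjusted p = 0.00623) and Wnt4 (-0.45, adjusted p = 0.0151). With the length and GC offset in those 4 libraries, where 13.5% of all genes were called, 5 of the 14 were: Cdkn1b (0.39), Lgr5 (0.54), Rspo1 (0.40), Gng13 (-1.08) and Lef1 (-0.55). Kitl (0.39, adjusted p = 0.0526) and Wnt4 (-0.26, adjusted p = 0.11) were not. Irx5, which lies beside Irx3 and acts with it, was at 4.81 to 9.73 CPM in controls and 6.86 to 8.97 CPM after exposure.

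**Figure D5:**
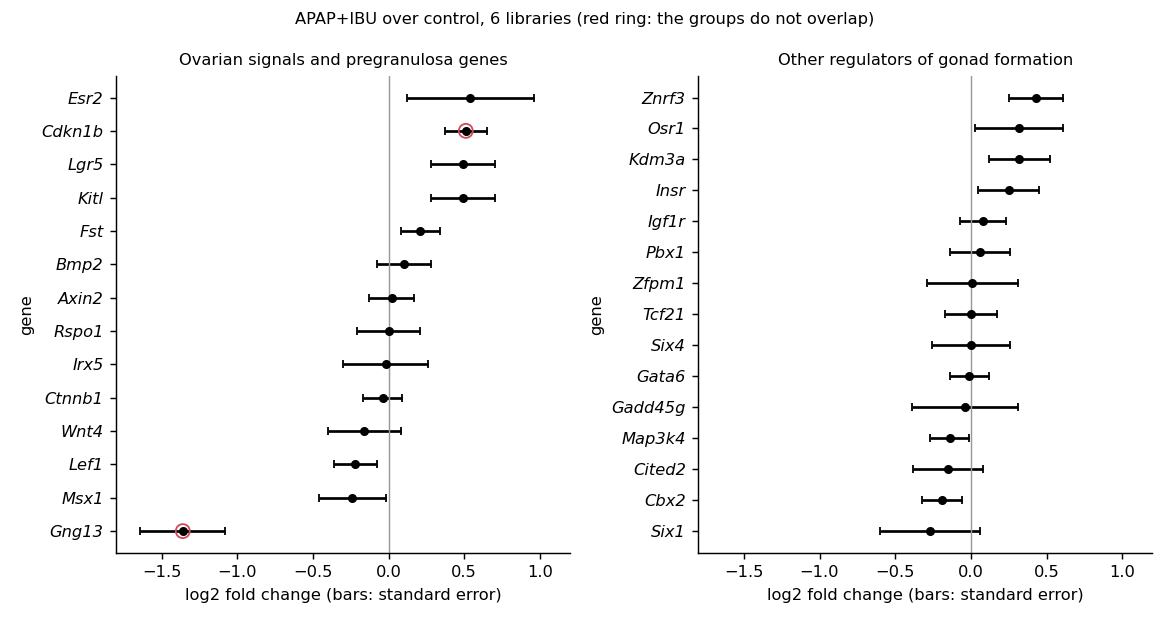
Log2 fold change of APAP+IBU over control in 6 libraries, with bars of 1 standard error, for 14 genes of ovarian signalling and pregranulosa cells (left) and 15 other regulators of gonad formation (right). Red rings mark Cdkn1b (0.51) and Gng13 (-1.36), whose control and exposed libraries do not overlap.

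Among 10 genes known to be activated by NR5A1 in steroidogenic or supporting cells, 0 passed, and 8 had negative log2 fold changes (median -0.23). Amhr2, the receptor gene of anti-Müllerian hormone, was the most abundant per length, at 262, 221 and 119 CPM in controls and 154, 187 and 179 CPM in exposed ovaries, the same spread of controls around the exposed libraries as for Nr5a1. Inha was at 19.2 CPM per kb (log2 fold change -0.28) and Scarb1 at 8.76 (-0.07). Cyp17a1, an androgen synthesis enzyme, was at 4.30, 5.09 and 2.88 CPM in controls and 2.50, 2.36 and 1.59 CPM after exposure. All exposed libraries of Cyp17a1 lay below all controls, as for 5.92% of all genes, with a log2 fold change of -0.92 (unadjusted p = 0.0161, adjusted p = 0.692). Fdx1 had -0.40 and Cyp11a1 -0.76 on the same scale, both with an adjusted p of 0.692. Of the 10, 4 were called lower in replicates 1 and 2, where 12.9% of all genes were. They were Amhr2 (-0.49, adjusted p = 0.0294), Cyp17a1 (-0.93, adjusted p = 0.0299), Inha (-0.57, adjusted p = 0.0358) and Fdx1 (-0.58, adjusted p = 0.0244). With the offset, where 13.5% of all genes were called, 2 were: Cyp17a1 (-0.87, adjusted p = 0.0456) and Fdx1 (-0.77, adjusted p = 0.0145). Amhr2 and Inha were both at 0.05.

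Of 17 paralogs and binding partners of the 10 factors, 0 passed, with a median of -0.29. The partners were the more abundant: Ldb1, which encodes a LIM-domain binding protein that joins LHX proteins, was at 41.7 CPM per kb, and Cbfb, which encodes the common partner of RUNX proteins, at 29.5. Both differed between groups by 0.09 (SE 0.16) and 0.06 (SE 0.13) on the log2 scale. Gata2 followed at 12.1 CPM per kb (log2 fold change -0.35, adjusted p = 0.704). Gata5 was at 4.22, 4.69 and 3.43 CPM in controls and 2.05, 2.49 and 2.47 CPM in exposed ovaries (log2 fold change -0.81, unadjusted p = 0.00853, adjusted p = 0.637). All exposed libraries of Gata5 lay below all controls, as for 5.92% of all genes. Of the 17, 3 were called lower in replicates 1 and 2, where 12.9% of all genes were: Gata2 (-0.74), Gata5 (-0.95) and Runx3 (-1.05). With the length and GC offset 0 were called, against 13.5% of all genes. In 6 libraries Gata3 (-0.49) and Runx3 (-0.56) had an adjusted p of 0.692 and 0.698. Runx2 and Runx3 stayed at or under 5.17 CPM in every library, below the lowest Runx1 value of 36.9 CPM.

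Of 10 testis somatic genes, 9 were tested and 0 passed, with 8 negative log2 fold changes and a median of -0.60. Their sum was 58.6 to 103 CPM in controls, highest in control 1, and 48.0 to 63.5 CPM in exposed ovaries. Sox9, the partner of NR5A1 in the testis, was at 8.42, 10.6 and 5.37 CPM in controls and 6.15, 5.98 and 5.99 CPM after exposure. Dmrt1, which fetal germ cells also express, was the most abundant, at 25.3 to 55.3 CPM. Ptgds and Cyp26b1 were lower in all exposed libraries than in all controls (log2 fold changes -1.28 and -0.76, adjusted p = 0.692 for both), as were 5.92% of all genes. These and Dhh (-1.33) made 3 of 9 lower at an unadjusted p under 0.05, where 3.21% of all genes were. Of the 9, 6 were called lower in replicates 1 and 2, where 12.9% of all genes were. They were Sox8, Dmrt1, Amh, Dhh, Ptgds and Cyp26b1, from -0.79 for Dmrt1 to -1.73 for Amh. After the offset, where 13.5% of all genes were called in either direction, 3 were called lower: Sox9 (-0.67), Dhh (-1.30) and Cyp26b1 (-0.82).

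The genes most like Foxl2, Nr5a1 and Wt1 were found by Pearson's r of log2 CPM over the 6 libraries, among 12463 genes with a mean of at least 5 CPM. For Foxl2 these were Gng5 (r = 0.9960), Naif1 (0.9924) and Vps11 (0.9879). Their own ranges were far narrower than that of Foxl2: Gng5 went from 64.8 CPM in control 3 to 101 CPM in control 1. Nr5a1 was most like Gm47283 (0.9976), Zfp553 (0.9973) and Pnrc1 (0.9961), and Wt1 was most like Slu7 (0.9821), Dpp10 (0.9816) and Zfp984 (0.9774). These are the highest of many values, each over only 6 libraries, and are given as a description.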

How the data were processed

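Per the labels and the study's methods, poly(A) RNA of 3 control and 3 APAP+IBU ovary pools was sequenced from stranded libraries, reads were mapped to mm10 (GRCm38) with TopHat2 2.0.14 and Bowtie2 2.1.0, and the authors deposited raw counts per Ensembl gene from HTSeq 0.6.1. Groups follow the exposure label. Gene symbols came from GENCODE M21 (48349 of 48709 identifiers). Counts were filtered with filterByExpr (20167 genes), scaled by TMM and tested in edgeR 4.0.16 (R 4.3.3, limma 3.58.1) by quasi-likelihood without covariates, with Benjamini-Hochberg adjustment over all tested genes at 0.05. Intervals are 95% from the fit. CPM was taken after TMM, and log2 CPM with a prior count of 1. The length and GC offset was a loess fit (span 0.3) per library over 20103 genes. DESeq2 1.42.0, other scalings and filters, a replicate block, leaving out libraries, and the fits on replicates 1 and 2 were alternatives. Scripts were tested on simulated data.

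The 10 factors and the lists of other genes were chosen with earlier results of these data known. Besides the 10 factors, the genes named are the 3 most abundant per length and the 3 with the smallest unadjusted p of each gonadal list, opposite-strand partners, and abundant or defining genes of lists for testis, Y-linked, germ cell, surface epithelium, stroma, adrenal, endothelium, macrophage, liver, erythroid and spermatid genes. Gata6, Wnt4, Rspo1, Fst, Irx5, Lgr5, Lef1, Insr, Sox8, Sox9, Amh, Dhh, Sycp3, Rec8, Lrrn4, Runx2, Ptgds and Cyp26b1 were named after their values were seen. So were Upk3b, Krt8, Krt18, Msln, Mc2r, Mrap and Akr1b7. A list of mesonephric genes is not reported here.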

Additional observations from a re-analysis of the deposited data

How the results depend on the processing

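The 10 factors stayed without a call in all alternatives that kept all 6 libraries and in each fit without 1 library, and the call of 2 (Lhx9 and Zfpm2) in replicates 1 and 2 was lost with the length and GC offset. The number of all genes called was 0 in the reported fit, 192 with DESeq2 without shrinkage, 168 with its beta prior, 120 when all genes with at least 1 count were kept, 5607 in replicates 1 and 2, 2793 there with the offset, and 0 to 1064 leaving out 1 library each, with 1064 without control 3. Leaving out 1 library each, 0 to 2 factors had an unadjusted p under 0.05 in edgeR. They were Foxl2 without control 1, Nr5a1 and Zfpm2 without control 3, and Lhx9 without APAP+IBU 3. In replicates 1 and 2 there were 2, and 1 there with the offset. The share of all genes at that limit is given here only for the 6 libraries (6.22%). Without that share for the same fits, these counts are not a result about the factors.

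With the replicate number as a block 2 genes were called, and 55 with the block and the offset, with 0 of the 10 factors in both. Deviations from the group means correlated at -0.07, -0.02 and -0.04 between libraries of the same number. These correlations cannot settle whether the numbers pair the samples, because libraries of the same number also differed in GC content.

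In 6 libraries 0 factors were called, so signs can be compared only for the 2 called in replicates 1 and 2. Of these, Lhx9 turned sign with the offset there and Zfpm2 did not. Log2 fold changes that turned sign were Nr0b1 0.07, Runx1 -0.04 and Irx3 0.05 with the offset, Nr0b1 0.09, Runx1 -0.03 and Irx3 0.05 with the block and the offset, and Foxl2 -0.67 in replicates 1 and 2. In replicates 1 and 2 with the offset they were Lhx9 -0.02, Nr0b1 0.04, Foxl2 -0.16, Runx1 -0.08 and Irx3 0.16. Leaving out 1 library each, the values ranged from -0.33 to 0.03 for Nr5a1, -0.21 to 0.03 for Emx2, -0.33 to 0.13 for Nr0b1, -0.54 to 0.27 for Irx3, -0.43 to 1.24 for Foxl2, -0.03 to 0.09 for Wt1 and -0.02 to 0.15 for Gata4. The highest values of Nr5a1, Emx2, Nr0b1, Irx3 and Foxl2 were those without control 1. Lhx9 (0.20 to 0.40), Zfpm2 (0.07 to 0.46) and Runx1 (0.02 to 0.20) kept their sign. The cause was not tested. Foxl2 rested on 41 to 311 counts a library.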

Other observations

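Germ cells share the ovary with the somatic cells that make the 10 factors. Of 12 germ cell genes, 0 passed the adjusted threshold in 6 libraries, with a median log2 fold change of -0.37. The most abundant were Dazl, an RNA-binding protein gene, at 368, 380 and 553 CPM in controls and 587, 592 and 476 CPM in exposed ovaries, and Stra8, the gene of meiotic entry, at 333, 319 and 208 CPM in controls and 212, 274 and 156 CPM in exposed ovaries. The groups overlapped for both. In replicates 1 and 2, 3 of the 12 were called higher and 6 lower, where 14.2% and 12.9% of all genes were. Among them were Dazl (0.68, adjusted p = 0.00632), Sycp3 (0.88, adjusted p = 0.00929) and Rec8 (-0.63, adjusted p = 0.00945). With the length and GC offset in those 4 libraries, where 13.5% of all genes were called, 2 were: Pou5f1 (-0.62) and Dppa3 (-0.85), both lower. Dazl was at -0.13 and Sycp3 at 0.13. Summed levels of the list were 1616 to 1804 CPM in controls and 1552 to 1883 CPM in exposed ovaries, and those of the 7 early gonad factors were 966 to 1104 CPM and 945 to 1155 CPM.

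Sums of the other lists, of cell types in the ovary and of other tissues, overlapped between groups except for the endothelial and spermatid lists. Stromal genes, led by Col3a1 and Col1a1, summed to 2703 to 3731 CPM in controls and 2440 to 2834 CPM in exposed ovaries, with a median log2 fold change of -0.09. Surface epithelial genes, a list that also holds Wt1, summed to 498 to 743 CPM and 525 to 553 CPM (median -0.48). Endothelial genes, led by Pecam1 and Kdr, summed to 498 to 542 CPM and 416 to 470 CPM without overlap (median -0.23, 0 of 8 at an unadjusted p under 0.05). Macrophage genes summed to 105 to 116 CPM and 75.1 to 107 CPM (median -0.35). Adrenal genes had a median of -0.24, Y-linked genes one of -0.89 and liver genes one of 0.61. Erythroid genes, led by the embryonic globin gene Hbb-y, summed to 6073 to 15681 CPM in controls, highest in control 2, and 2734 to 8089 CPM after exposure (median -0.22). In replicates 1 and 2, calls numbered 2 of 9 stromal, 4 of 7 surface epithelial, 2 of 8 endothelial, 2 of 8 macrophage, 1 of 8 adrenal, 1 of 12 liver, 4 of 9 erythroid and 0 of 4 Y-linked genes, and with the length and GC offset they numbered 3, 0, 2, 1, 1, 0, 1 and 2. Of all genes, 27.2% were called in those libraries without the offset and 13.5% with it. All 10 spermatid genes, such as the protamine genes Prm1 and Prm2, lay below all 3 controls in all 3 exposed libraries, as did 5.92% of all genes. Their median log2 fold change was -4.26, and all 10 were called in replicates 1 and 2 with and without the offset. Their adjusted p ranged from 0.0906 for Smcp to 0.12 for Tnp1.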
